A study of Mus musculus with 8 samples.

Results

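Satellite glia and non-myelinating Schwann cells are the glia that wrap neuron cell bodies and unmyelinated fibres in peripheral ganglia and nerves. 10 genes used as their markers were examined in the mouse auditory nerve: Fabp7, Apoe, Scn7a, Sparcl1, Ncam1, L1cam, Sox2, Cadm1, Cadm2 and Cadm4. They were picked by name from the 15035 genes of the deposited table, and all 10 were present. The nerves were dissected from mice at postnatal day 21 and studied by bulk RNA sequencing. 4 libraries are from wild-type animals, numbered 1 to 4, and 4 are labelled Mef2c heterozygote, numbered 5 to 8. Each library holds the pooled nerves of the 2 cochleas of 1 mouse. Mef2c encodes a MADS-box transcription factor. The strain, the sex, the Mef2c allele and the way it was made are not given in the sources used here.

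In the spiral ganglion, satellite glia form a sheath around each neuron, and Schwann cells either make peripheral myelin or, without myelin, hold bundles of thin fibres. Nearer the brainstem the nerve passes into central tissue, where oligodendrocytes and astrocytes take their place. Both kinds of non-myelinating glia are known for lipid carriers, matrix-binding proteins, the stem cell factor Sox2 and adhesion molecules of the immunoglobulin superfamily, which bind neighbouring glia and axons. Few of these genes belong to 1 cell type: neurons also make Ncam1, L1cam and the Cadm genes, macrophages and astrocytes make Apoe, astrocytes and endothelial cells make Sparcl1, and astrocytes and oligodendrocyte precursors make Fabp7.

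Estimated depth was 13363056 to 21505981 reads per library, and median values were 461.1 to 472.2 normalized counts. Mef2c was higher in the libraries labelled heterozygote, at 668.3 ± 66.8 normalized counts, than in wild type, at 462.0 ± 50.4 (SD, n = 4 each), without overlap. Its limma-trend adjusted p was 0.186, which misses the threshold of 0.05, and 1 of 17 alternative settings took it past (the first residual principal component as a covariate, 0.0404). That component comes from the residuals of the same fit and leaves the log2 fold change of Mef2c as it was, at 0.53. The authors' deposited table gives Mef2c an FDR of 0.0162. The labels do not say how the allele affects the transcript, so the Mef2c values cannot check them. Every direction below is between libraries as labelled. Wild-type library 1 and heterozygote-labelled library 5 stand apart in Xist, with 12 and 7.6 normalized counts against 5175 to 8615 in the other 6. The nerve's own cells were present: the neurofilament gene Nefl stood at 37000 ± 3575 normalized counts in the wild-type group (SD, n = 4), the peripheral myelin gene Pmp22 at 23187 ± 2314, and the glial factor Sox10 at 3406 ± 150. The oligodendrocyte gene Mog was also present, at 1794 ± 284 (SD, n = 4), so the dissected nerve held transcripts of central glia as well.

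Fabp7 was the marker that differed most between the genotypes, at 0.435 times the wild-type mean in the libraries labelled heterozygote, and in the other 9 the libraries of the genotypes overlapped. None of the 10 passed a limma-trend adjusted p of 0.05 (Benjamini-Hochberg over 14870 genes), against 0.0807% of all genes tested. At an unadjusted p under 0.05 there were 2 of 10, Fabp7 lower and L1cam higher, against 14.1% of all genes, 7.34% lower and 6.72% higher. The genotypes did not overlap in 1 of 10, Fabp7, against 7.26% of all genes. These shares are near the background and are no result about the markers as a group. The median log2 fold change of the 10 was 0.05, and that of all genes tested was 0.02. All 10 passed the filter on low values, and the lowest single value among them was 122 normalized counts.

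**Figure D1:**
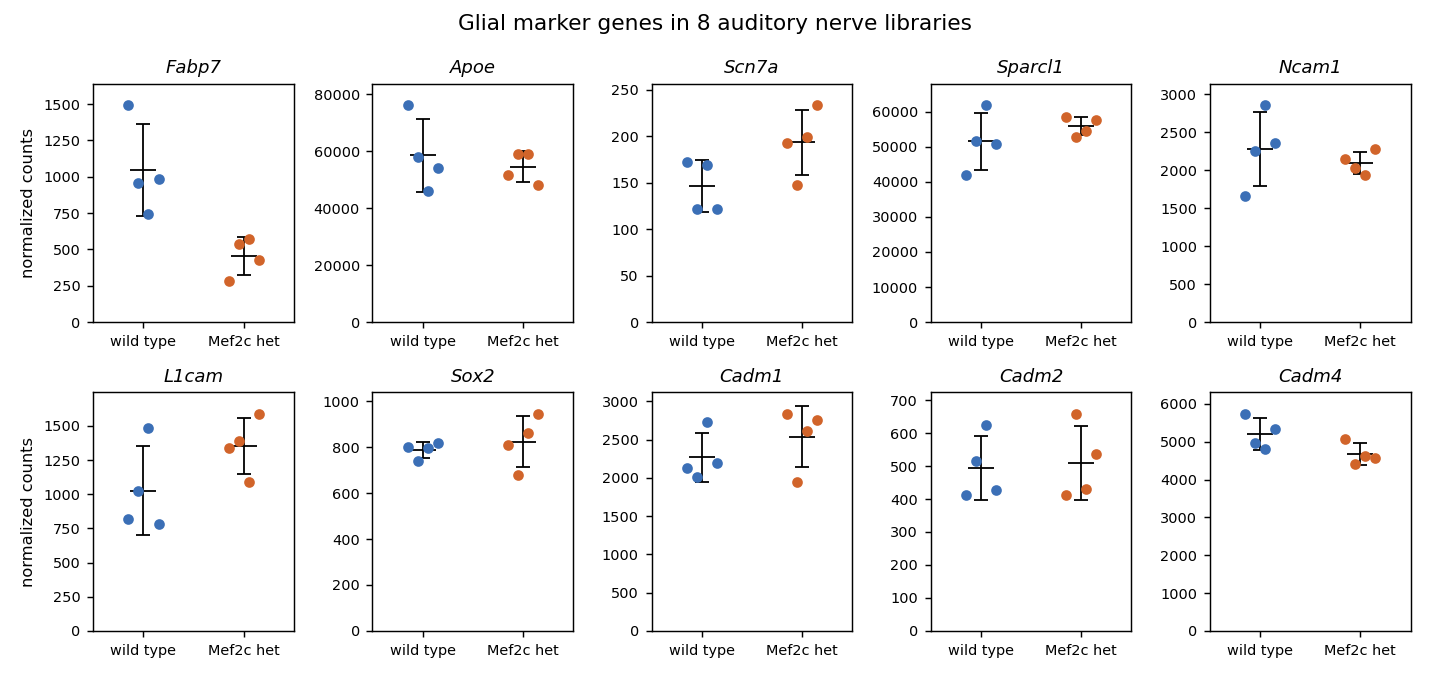
Normalized counts (vertical axes, each from 0) of the 10 marker genes in wild-type and heterozygote-labelled libraries; points are libraries, and bars show the mean and SD of 4. In Fabp7 the heterozygote-labelled libraries, at 284.6 to 573.9, lie below all wild-type libraries, at 743.4 to 1491.1; in the other 9 genes the groups overlap.

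Fabp7 encodes the brain-type fatty acid binding protein, a small carrier of long-chain fatty acids in immature and satellite glia. It had 1491.1, 959.7, 743.4 and 986.8 normalized counts in wild-type libraries 1 to 4. It had 284.6, 535.0, 573.9 and 425.7 in heterozygote-labelled libraries 5 to 8. All 4 of the latter lay below every wild-type library, and the 2 extreme values came from the 2 libraries low in Xist. The means were 1045 ± 317 and 454.8 ± 129.7 (SD, n = 4 each), which is 56.5% lower. On the log2 scale this is a change of -1.20 (standard error 0.24, 95% interval -1.72 to -0.68). Fabp7 had an unadjusted limma-trend p of 0.000298 and an adjusted p of 0.110, and so missed the threshold among all genes. A two-sided exact permutation test of its 8 values gave p = 0.0286, its lower limit with 4 libraries in each group. Among all genes tested, 0.605% had a log2 fold change as low or lower.

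Of the 17 alternative settings, 3 took Fabp7 past the threshold: array quality weights (limma-trend adjusted p 0.0344), a covariate made of the first residual principal component (0.00988) and leaving out wild-type library 3 (0.0254). That component comes from the residuals of the same fit, so passing with it is no separate support. The log2 fold change stayed at -1.20, and the standard error was 0.17 against 0.24. The adjusted p of Fabp7 ran from 0.00988 to 0.390 over all 17 settings. Without the 2 libraries low in Xist the means were 896.6 ± 133.4 and 511.5 ± 76.8 (SD, n = 3 each), the log2 fold change was -0.81 and the limma-trend adjusted p 0.109. Fabp7 had a ratio of 0.436 and an FDR of 0.000274 in the authors' deposited table, and 1.61% of its genes had an FDR under 0.05. The FDR of the other 9 markers in the authors' deposited table ran from 0.328 to 0.941.

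Since Fabp7 is the marker the comparison turns on, the DNA before its start is shown. Fabp7 lies on chromosome 10 (GRCm38, the mm10 build named in the submitters' processing notes), from 57784881 to 57788450 on the plus strand. The stretch covers the 208 bases up to its GENCODE start, at chr10:57784673-57784880, from RefSeq (GRCm38.p6). Capitals mark a SOX core (ACAAT or its reverse complement ATTGT) and a nuclear factor I half-site (TTGGC or its reverse complement GCCAA).
Fabp7 promoter: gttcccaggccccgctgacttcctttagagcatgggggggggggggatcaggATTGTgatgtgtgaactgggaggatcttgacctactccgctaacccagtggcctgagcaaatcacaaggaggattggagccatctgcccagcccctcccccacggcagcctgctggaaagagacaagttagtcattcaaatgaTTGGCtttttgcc
The SOX core begins 198 bases and the nuclear factor I half-site 55 bases before the RefSeq start. Over the 250 bases before each RefSeq start, searched on both strands, 27.7% of 32851 windows held the SOX core and 41.5% the half-site, so both are common. The MEF2 consensus site, the sequence bound by the factor that Mef2c encodes, was in 2.92% of the windows. It was in 0 of the 10 windows found for 7 of the markers. The SOX core was in 3 of those windows (Apoe, Cadm4 and Fabp7) and the half-site in 6. A match or its absence describes these letters and says nothing about binding.

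The library pattern of Fabp7 was then set against other genes. Likeness was measured as the root mean square, over the 8 libraries, of the difference between 2 genes' log2 deviations from their own means. The measure includes the difference between genotypes, so genes with a log2 fold change near that of Fabp7 score as close. Among 12204 genes with a mean of at least 100 normalized counts, the closest to Fabp7 was Hapln2, which encodes a link protein of the matrix at nodes of Ranvier. The difference was 0.08, against 0.71 for the deviations of Fabp7 itself. The next was Klk6, a protease of mature oligodendrocytes, at 0.13. Hapln2 had means of 855.6 and 357.6 normalized counts in the wild-type and the heterozygote-labelled libraries, and Klk6 had 1206 and 478.3. Their log2 fold changes were -1.26 and -1.34, and both belong to the list of 12 oligodendrocyte genes. The same measure against list means was added after this was seen. It was 0.17 for the oligodendrocyte list, 0.42 for the astrocyte list, 0.53 for the macrophage list and 0.63 for the myelinating Schwann cell list. The list of 9 other satellite glia genes, other non-myelinating Schwann cell genes and fatty acid binding genes were each at 0.64. The other 9 markers were at 0.78, and the lists not named here at 0.67 to 2.39. The oligodendrocyte list includes Hapln2 and Klk6, so its closeness is in part built in.

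**Figure D2:**
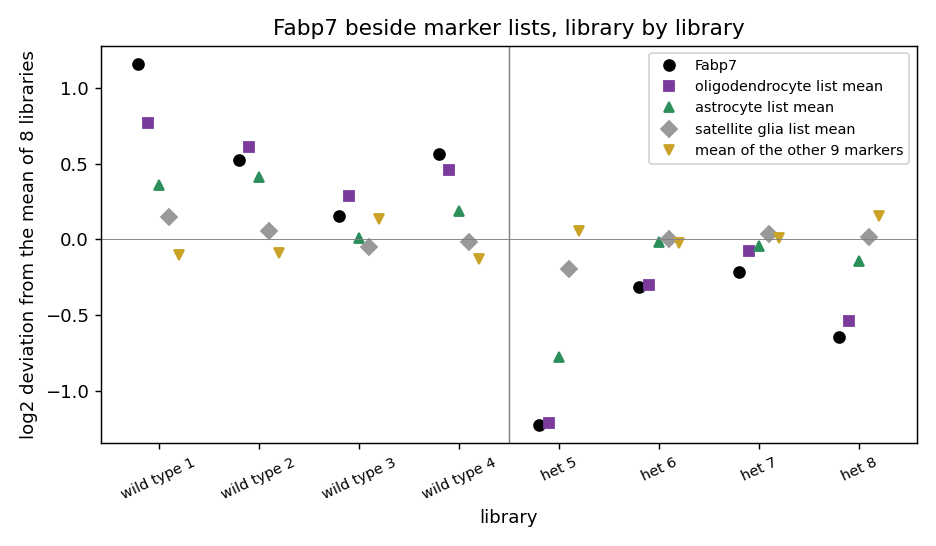
Log2 deviation from the mean of 8 libraries (vertical axis) for Fabp7 and for the mean of 4 gene sets, by library (horizontal axis). In heterozygote-labelled library 5, where the 2 are closest, Fabp7 is at -1.23 and the oligodendrocyte list at -1.22, while the other 9 markers are at 0.05. In wild-type library 1, where they are farthest apart, Fabp7 is at 1.16 and the oligodendrocyte list at 0.77.

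Like Fabp7, the oligodendrocyte list, with genes of central myelin, was lower in the libraries labelled heterozygote. Its summed level was 25132 to 32133 normalized counts in wild type and 8228 to 15644 in the libraries labelled heterozygote, without overlap. Of its 12 genes, 5 fell past the limma-trend adjusted threshold of 0.05 (Mag, Mog, Prr18, Klk6 and Mobp) and 0 rose, against 0.0807% of all genes. The median log2 fold change was -1.29. With wild-type library 2 or 4 or heterozygote-labelled library 8 left out, 0 of the 12 passed, while 8 did with wild-type library 3 left out and 3 with heterozygote-labelled library 7 left out. The astrocyte list had a summed level of 18367 to 22776 in wild type and 14221 to 21475 in the libraries labelled heterozygote. None of its 9 genes passed, and its median was -0.47. At an unadjusted limma-trend p under 0.05 there were 5, all lower, against 7.34% of all genes. No marker of either list was at 0 in all libraries. The part of these cells in the Fabp7 difference was not tested. In these bulk samples, fewer cells of a type and less RNA per cell cannot be told apart.

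Apoe encodes apolipoprotein E, which carries cholesterol and other lipids between cells. It had 76110.8, 58072.1, 45956.8 and 54126.3 normalized counts in wild-type libraries 1 to 4. It had 51660.3, 59193.6, 58886.7 and 48208.1 in heterozygote-labelled libraries 5 to 8. The heterozygote-labelled libraries lay inside the wild-type range. The log2 fold change was -0.09 with a 95% interval of -0.45 to 0.28 and a limma-trend adjusted p of 0.835. Its sign turned without wild-type library 1, where the log2 fold change was 0.05. The macrophage list, whose cells also make Apoe, had a summed level of 4761 to 7561 normalized counts in wild type, highest in library 1, and 4167 to 5833 in the libraries labelled heterozygote. On the likeness measure Apoe differed from the macrophage list mean by 0.13. Other lists were nearly as close: fatty acid binding genes at 0.13, other satellite glia genes at 0.16 and endothelial genes at 0.17. The deviations of Apoe itself were at 0.21, and the part of macrophages in the Apoe level was not tested.

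Sparcl1 encodes hevin, a secreted matrix protein known for its role in synapse formation. It had 41942.5, 51699.3, 61797.6 and 50677.1 normalized counts in wild-type libraries 1 to 4. In heterozygote-labelled libraries 5 to 8 it had 58331.9, 52859.7, 54612.3 and 57485.9. The wild-type libraries spread more widely than the others, with library 1 lowest and library 3 highest. Sparcl1 had a log2 fold change of 0.13 (95% interval -0.19 to 0.44, limma-trend adjusted p 0.695). It was 0.03 without wild-type library 1, 0.22 without wild-type library 3, 0.01 without the 2 libraries low in Xist and 0.23 with quantile normalization.

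Scn7a encodes the Nax channel, which senses extracellular sodium and is made by non-myelinating Schwann cells. It had 172.6, 122.2, 169.6 and 122.0 normalized counts in wild-type libraries 1 to 4. It had 193.3, 147.3, 199.8 and 233.5 in heterozygote-labelled libraries 5 to 8. Libraries 5, 7 and 8 lay above all wild-type libraries, and library 6 lay among them. Scn7a had a log2 fold change of 0.40 (95% interval -0.07 to 0.86, limma-trend adjusted p 0.405), and it was 0.21 after correction for transcript length.

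Sox2 encodes a transcription factor of neural stem cells that satellite glia and the supporting cells of the hearing organ keep. It had 800.7, 738.9, 798.4 and 817.7 normalized counts in wild-type libraries 1 to 4. In heterozygote-labelled libraries 5 to 8 it had 810.3, 678.7, 861.3 and 945.1. The wild-type values lay within a coefficient of variation of 4.37%, the narrowest of the 10 markers in that group. Its log2 fold change was 0.05 (95% interval -0.20 to 0.31, limma-trend adjusted p 0.851). Sox2 lies inside the long noncoding gene Sox2ot on the same strand, and how reads in the overlap were counted is not given in the sources used here.

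Of the adhesion genes, the L1 and NCAM pair showed the larger difference in L1cam. L1cam encodes a cell adhesion molecule of axons and of the Schwann cells that hold unmyelinated fibres. It had 816.3, 1026.7, 1484.0 and 781.5 normalized counts in wild-type libraries 1 to 4. It had 1340.4, 1388.8, 1087.5 and 1587.4 in heterozygote-labelled libraries 5 to 8. All heterozygote-labelled libraries lay above wild-type libraries 1, 2 and 4, and wild-type library 3 lay above 3 of them. L1cam had a log2 fold change of 0.43 (standard error 0.19), an unadjusted limma-trend p of 0.0421 and an adjusted p of 0.341. The two-sided exact permutation test of its 8 values gave p = 0.171. Over all 17 alternatives the log2 fold change ran from 0.32 to 0.62 and the limma-trend adjusted p from 0.0529 to 0.652. The largest change and the smallest adjusted p came without wild-type library 3. The log2 fold change was 0.32 without wild-type library 4 (unadjusted limma-trend p 0.134). L1cam lies on the X chromosome, and without the 2 libraries low in Xist the change was 0.34 (unadjusted limma-trend p 0.144). The summed level of the neuron list was highest in wild-type library 3, at 250229 normalized counts. It was 181669 to 211476 in the other wild-type libraries and 202258 to 238282 in the libraries labelled heterozygote. The part of neuronal transcripts in L1cam was not tested. L1cam overlaps the protein-coding gene Arhgap4 on the same strand, and how reads in that overlap were counted is not given in the sources used here. Arhgap4 ranged in normalized counts from 38.7 to 72.7 over wild type and from 55.8 to 86.3 over the libraries labelled heterozygote, with a log2 fold change of 0.42 (limma-trend adjusted p 0.526).

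Ncam1 encodes the neural cell adhesion molecule, which carries polysialic acid in immature tissue. It had 1666.3, 2257.7, 2855.3 and 2357.7 normalized counts in wild-type libraries 1 to 4. In heterozygote-labelled libraries 5 to 8 it had 2147.5, 2029.3, 1938.5 and 2277.5, all inside the wild-type range. The log2 fold change was -0.10 (95% interval -0.41 to 0.21, limma-trend adjusted p 0.762). Without wild-type library 3 its sign turned, to 0.02. After correction for transcript length the log2 fold change was -0.26 (unadjusted limma-trend p 0.0266). It was -0.25 without the 2 libraries low in Xist (0.0474) and -0.24 without wild-type library 1 (0.0356). Ncam1 passed the adjusted threshold in 0 of the 17 alternatives, where its smallest limma-trend adjusted p was 0.365.

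The Cadm genes encode nectin-like molecules that join axon and glia along the internode, with Cadm4 on the glial side and Cadm1 and Cadm2 mostly on axons. Cadm4 had 5733.5, 4964.7, 4805.0 and 5330.3 normalized counts in wild-type libraries 1 to 4. It had 5084.6, 4400.1, 4620.5 and 4577.4 in heterozygote-labelled libraries 5 to 8. Libraries 6, 7 and 8 lay below every wild-type library, and library 5 lay among them. Cadm4 had a log2 fold change of -0.16 (95% interval -0.35 to 0.04, limma-trend adjusted p 0.437) and one of -0.09 after correction for transcript length.

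Cadm1 had 2129.6, 2013.0, 2734.3 and 2191.9 normalized counts in wild-type libraries 1 to 4. It had 2832.6, 1950.8, 2609.4 and 2758.0 in heterozygote-labelled libraries 5 to 8. Library 6 lay below all other libraries, and the groups overlapped. Cadm1 had a log2 fold change of 0.16 (95% interval -0.14 to 0.45, limma-trend adjusted p 0.594). It was 0.28 without heterozygote-labelled library 6, 0.25 without wild-type library 3, 0.10 without heterozygote-labelled library 5 and 0.10 without wild-type library 2. It was 0.07 without both libraries low in Xist and 0.06 after correction for transcript length, and none of these passed. Cadm2 had 411.4, 514.1, 623.3 and 427.6 normalized counts in wild-type libraries 1 to 4. It had 412.8, 657.8, 429.7 and 537.2 in heterozygote-labelled libraries 5 to 8. The 2 groups covered nearly the same range, and the log2 fold change was 0.04 (95% interval -0.36 to 0.43, limma-trend adjusted p 0.936). The sign of Cadm2 turned in 5 of 17 alternatives, and after correction for transcript length its log2 fold change was -0.21.

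**Figure D3:**
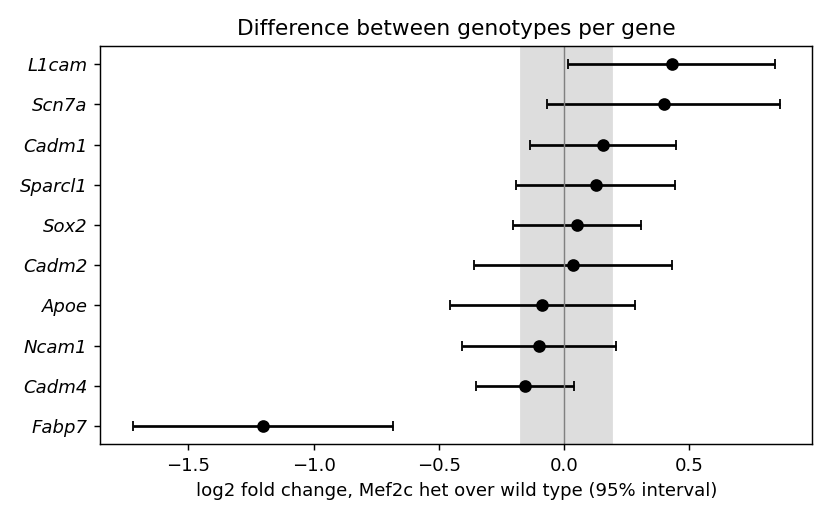
Log2 fold change of the libraries labelled heterozygote over wild type (horizontal axis) for each marker (vertical axis), with 95% intervals from limma-trend; the grey band holds the middle of all 14870 genes, from -0.17 to 0.19. The intervals of Fabp7 and L1cam exclude 0, and Fabp7, at -1.20, lies apart from the other 9, at -0.16 to 0.43.

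Levels were compared between genes per kilobase of the longest annotated transcript (GENCODE M21). In wild type Apoe was highest, at 41596 ± 9047 normalized counts per kb, followed by Sparcl1 at 18677 ± 2945, Cadm4 at 2410 ± 191 and Fabp7 at 1188 ± 360 (SD, n = 4 each). These 4 did not overlap between neighbours in the order. Cadm1 followed at 475.6 ± 67.2 per kb, Sox2 at 383.5 ± 16.7, Ncam1 at 348.0 ± 74.3 and L1cam at 200.4 ± 63.1 (SD, n = 4 each). Within single wild-type libraries, Sox2 was above Ncam1 in 3 of 4, with a difference of 35.5 ± 75.7 per kb (SD, n = 4), so this pair did not differ beyond its spread. Ncam1 was above L1cam in 4 of 4, by 147.6 ± 45.9 per kb (SD, n = 4), although the ranges of the 2 genes over libraries overlapped. Each of the other neighbours in the order kept its place in all 4 wild-type libraries. Cadm2 had 51.7 ± 10.2 per kb and Scn7a 19.98 ± 3.86 (SD, n = 4 each). In the libraries labelled heterozygote the place of Fabp7 was no longer apart. Its 516.8 ± 147.3 per kb overlapped with Cadm1 at 532.3 ± 84.4 and with Sox2 at 400.5 ± 54.2 (SD, n = 4 each), and it was above Cadm1 in 2 of these 4 libraries.

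**Figure D4:**
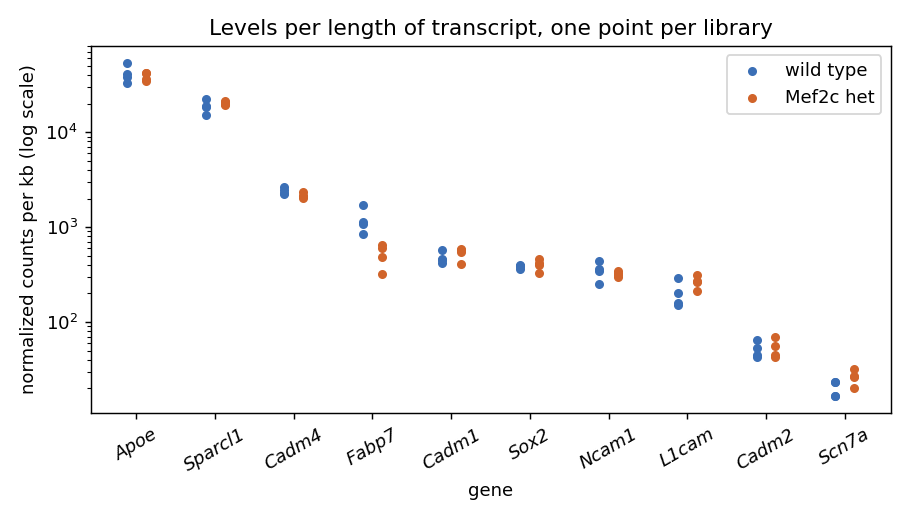
Normalized counts per kb of longest transcript (vertical axis, log scale) for the 10 markers in order of their wild-type mean, with 1 point per library. Apoe and Sparcl1 lie far above the rest, and Fabp7 is at 1188 per kb in wild type and, beside Cadm1, at 516.8 in the libraries labelled heterozygote.

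The markers also varied among themselves. Wild-type library 3 had the highest wild-type value in 5 of 10 markers (Sparcl1, Ncam1, L1cam, Cadm1 and Cadm2) and the lowest in 3 (Fabp7, Apoe and Cadm4). Wild-type library 1 had the highest in 4 (Fabp7, Apoe, Scn7a and Cadm4) and the lowest in 3 (Sparcl1, Ncam1 and Cadm2). These 2 libraries thus lay at opposite ends in Fabp7, Apoe, Cadm4, Sparcl1, Ncam1 and Cadm2. Over the 8 libraries, 45 pairs of markers were compared by Pearson correlation with a two-sided exact permutation test. None passed a Benjamini-Hochberg adjusted p of 0.05; the smallest adjusted p was 0.119, and 10 pairs had an unadjusted exact p under 0.05. The strongest was Apoe with Sparcl1, at r = -0.93 (exact permutation p 0.00265, adjusted p 0.119) and Spearman's rho = -0.76 (exact permutation p 0.0368, adjusted p 0.258). Without wild-type libraries 1 and 3, the farthest in Apoe, r was weaker, at -0.64 (exact permutation p 0.186). With so few libraries left, whether the relation rests on these 2 cannot be told. Pairs with Fabp7 are counted among the 45. The 10 include Fabp7 with L1cam (r = -0.75, exact permutation p 0.0323) and with Sparcl1 (r = -0.74, exact permutation p 0.0352). These are not read as correlations, because the libraries fall into 2 separate groups in Fabp7.

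For the other markers, the most alike genes over the 8 libraries differed from them by 0.03 to 0.11 on the likeness measure. They were Cmtm6 and Dlg3 for Apoe, Cxcl14 and Flvcr2 for Scn7a, Rab14 and Miga1 for Sparcl1, and Zfp830 and Fam171b for Ncam1. For L1cam they were Vgll3 and Shank3, for Sox2 Eya4 and Twf1, and for Cadm1 Tmc1 and Ddn. For Cadm2 they were Scamp3 and Ppp2r2b, and for Cadm4 Rnf220 and Cd9. With this many genes and 8 libraries close matches are common, and these are descriptions.

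Other genes of the same cells were read from the same fit. For every list below, the share of all genes tested past the adjusted threshold was 0.0807%. At an unadjusted limma-trend p under 0.05 it was 7.34% lower and 6.72% higher. Of 9 other satellite glia genes, 0 passed the limma-trend adjusted threshold and 0 had an unadjusted p under 0.05, and the median log2 fold change was -0.07. Their summed level was 92642 to 117243 normalized counts in wild type and 95918 to 106350 in the libraries labelled heterozygote. The list includes Glul (glutamine synthetase), at 26817 ± 413 and 25685 ± 2053 normalized counts, and the potassium channel gene Kcnj10, at 2826 ± 163 and 2723 ± 727 (SD, n = 4 each). The smallest unadjusted limma-trend p in that list were those of Ptprz1, Gja1 and Slc7a2, with log2 fold changes of -0.30, -0.29 and 0.17. Of 8 tested genes shared by peripheral glia, 0 passed and 1 had an unadjusted p under 0.05, and Gpr37l1, a receptor of glia, had the smallest unadjusted limma-trend p (0.00672, log2 fold change -0.41). Sox10 and Sox8 came next, at 0.17 and 0.28.

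Of 7 other tested genes of non-myelinating Schwann cells, 0 passed, 2 had an unadjusted limma-trend p under 0.05 (Gfap lower and Chl1 higher), and the median log2 fold change was 0.08. Gfap, the intermediate filament gene of non-myelinating Schwann cells and of astrocytes, had 12894 ± 3658 normalized counts in wild type and 6477 ± 1640 in heterozygote-labelled libraries (SD, n = 4 each), without overlap. Its log2 fold change was -0.99 (limma-trend p 0.000694 unadjusted, 0.160 adjusted). Gfap passed when wild-type library 3 was left out (limma-trend adjusted p 0.0290). Chl1, a close homolog of L1cam, had a log2 fold change of 0.53, also without overlap, and the growth cone gene Gap43 one of -0.47. Ngfr, the low-affinity neurotrophin receptor of these Schwann cells, had 2644 ± 407 and 2770 ± 237 normalized counts (SD, n = 4 each). The genotypes did not overlap in 2 of these 7 genes, Gfap lower and Chl1 higher, against 7.26% of all genes.

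The partners and relatives of the markers came next. Of 16 tested genes for L1, NCAM and contactin family members and their partners, 0 passed, 2 higher and 1 lower had an unadjusted p under 0.05, 14 had a log2 fold change above 0 (52.3% of all genes did), and the median was 0.24. St8sia2, which adds polysialic acid to Ncam1, had 178.0 ± 100.9 normalized counts in wild type and 403.0 ± 111.9 in heterozygote-labelled libraries (SD, n = 4 each). It overlapped between the groups, with a log2 fold change of 1.28 (limma-trend adjusted p 0.214). Without wild-type library 3 the limma-trend adjusted p of St8sia2 was 0.0176. Cntn2, of the juxtaparanode, had a log2 fold change of -0.27. Of 17 genes for Cadm and nectin relatives and their intracellular partners, 0 passed and 1 had an unadjusted p under 0.05, and the median was 0.03. Epb41l1, Mpp2 and Afdn, which encode scaffold proteins, had the smallest unadjusted limma-trend p there, with log2 fold changes of 0.37, 0.45 and 0.25.

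Of 14 tested genes for apolipoproteins, their receptors and lipid export, 0 passed. At an unadjusted limma-trend p under 0.05 there were 2, both higher, against 6.72% of all genes. The genotypes did not overlap in 1 of the 14, Lrp1, against 7.26% of all genes. Lrp1, a receptor that takes up apolipoprotein E, had 8513 ± 660 normalized counts in wild type and 11348 ± 1210 in heterozygote-labelled libraries (SD, n = 4 each), without overlap, and a limma-trend adjusted p of 0.214. Abca1, which exports cholesterol, and Clu, which encodes clusterin, had log2 fold changes of 0.36 and -0.33. Of 5 tested relatives of Fabp7 in lipid and retinoid binding, 0 passed and 0 had an unadjusted p under 0.05. Fabp3, Fabp5 and Pmp2 had log2 fold changes of -0.29, -0.20 and 0.40, each with overlap, against -1.20 for Fabp7. Of 7 relatives of Sparcl1, 0 passed and 0 had an unadjusted p under 0.05, and Sparc, Smoc2 and Spock2 had log2 fold changes of 0.26, 0.47 and 0.18. Of 14 SOX factors other than Sox2, 0 passed and 1 had an unadjusted p under 0.05, and Sox13, Sox1 and Sox3 had log2 fold changes of 0.30, 1.15 and -1.06, the latter pair at 21.9 to 63.2 normalized counts on average.

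**Figure D5:**
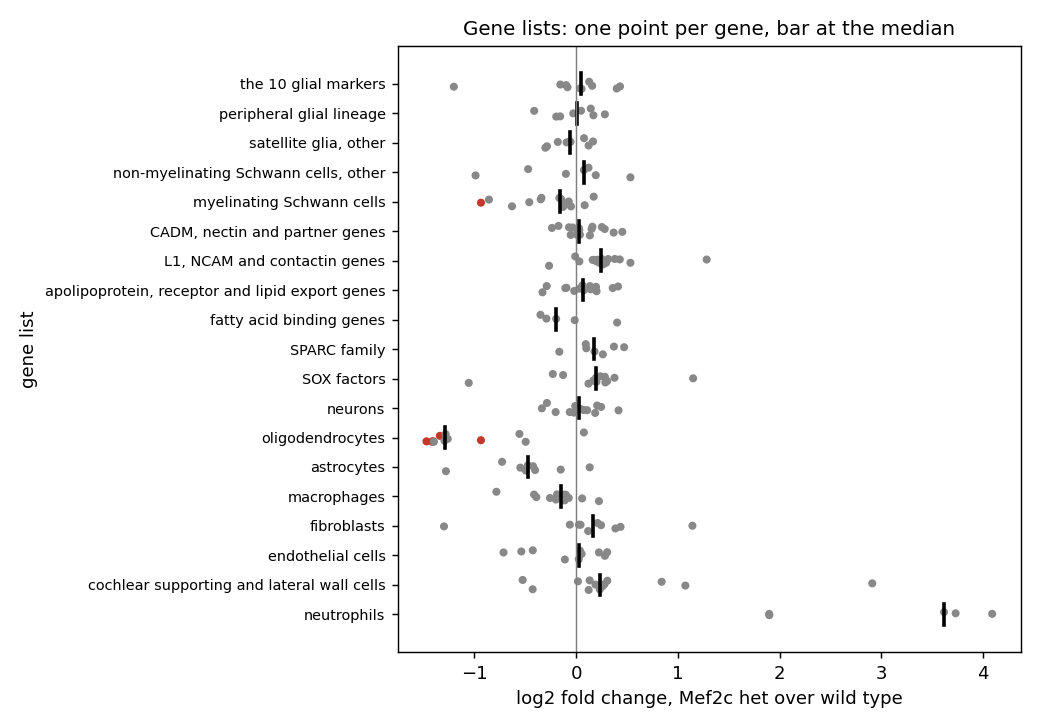
Log2 fold change of the libraries labelled heterozygote over wild type (horizontal axis) for the genes of 19 lists (vertical axis); each point is a gene, red where the limma-trend adjusted p is under 0.05, and the bar is the median. The oligodendrocyte list lies lowest, with a median of -1.29, and the 10 glial markers are centred at 0.05 with Fabp7 apart on the left.

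Markers of the other cells of the dissection were set beside these. Of 14 genes of myelinating Schwann cells, 1 passed the limma-trend adjusted threshold of 0.05, Mag, which oligodendrocytes also make, and the median log2 fold change was -0.16. At an unadjusted limma-trend p under 0.05 there were 6 of 14, all lower (Mag, Gjb1, Mbp, Fa2h, Pllp and Mal), against 7.34% of all genes, and in 6 the genotypes did not overlap, against 7.26%. The summed level of this list was 175548 to 208723 normalized counts in wild type and 120844 to 131538 in the libraries labelled heterozygote, without overlap. The part of oligodendrocyte transcripts in these 6 genes and in the sum was not tested. The count past the adjusted threshold was 0 without wild-type library 2, 0 without wild-type library 4, 0 without heterozygote-labelled library 8, and 3 without wild-type library 3. The neuron list had a median of 0.02, the endothelial list 0.03, the macrophage list -0.15, the fibroblast list 0.16 and the list of cochlear supporting and lateral wall cells 0.23, each with 0 genes past the threshold. At an unadjusted limma-trend p under 0.05 they had 0, 3 (lower), 1 (lower), 2 (higher) and 2 (higher), against 7.34% lower and 6.72% higher among all genes. For these the smallest unadjusted limma-trend p belonged to Gata3, Uchl1 and Syt2 (neurons), Emcn, Egfl7 and Cldn5 (endothelium), and Trem2, Ctss and C1qa (macrophages). Among fibroblast genes it belonged to Col1a1, Col1a2 and Col3a1, and among cochlear genes to Tecta, Otog and Otoa. Col1a1 passed without wild-type library 1 (limma-trend adjusted p 0.0243) and without the 2 libraries low in Xist (0.00899). Tecta and Otog passed without wild-type library 3 (limma-trend adjusted p 0.00380 and 0.0201), Otog also without heterozygote-labelled library 6 (0.0220). The neutrophil list stood highest, with a median of 3.62 over 5 tested genes and 0 past the threshold. At an unadjusted limma-trend p under 0.05 there were 4, all higher, against 6.72% of all genes. The summed level of this list was 134.1 to 2550 normalized counts in wild type and 717.9 to 6391 in the libraries labelled heterozygote. Its first 3 genes by p were S100a8, S100a9 and Ngp, all 3 of which passed without wild-type library 3, and again without heterozygote-labelled library 6, while S100a8 passed without wild-type library 1. The part of these cells in the marker values was not tested.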

How the data were processed

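Poly(A) libraries were made with a directional kit from total RNA with an integrity number of at least 7, per the labels' protocols. The submitters' processing notes name mm10, STAR, Partek and DESeq2. The authors deposited 1 signal value per gene and sample, which from its values is a read count divided by a size factor. Whole multiples of the value of 1 read, found among values under 300, made up 85.2% to 90.1% of them, too few to recover reads, so no count model was used, and depth is an estimate that covers counting only. The deposited p-value, ratio and log2 columns compare the genotypes, and the deposited score column was not used, per the file headers. Genes reaching 10 normalized counts in 4 or more libraries entered limma-trend (limma 3.58.1, R 4.3.3) on log2(value + 1), which understates changes of low genes, on all 8 libraries without covariates. The adjusted p threshold was 0.05. Single values used a two-sided exact permutation test (Python 3.11.15). The fit was tested on simulated data.

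Members, lists and tests were chosen with earlier results of these data known, so no pattern here is independent support for them. Named genes were all 10 markers, Mef2c, genes of a list past the threshold or else its 3 with the smallest unadjusted p, and for each marker the 2 most alike genes. Outside this rule, Nefl, Pmp22, Glul, Kcnj10, Ngfr, Xist, Arhgap4 and Sox2ot were named as well. So were the myelinating Schwann cell genes with an unadjusted limma-trend p under 0.05. Lists share some genes (Mag, Chl1, Gjb6, Sox8, Sox10). Transcript lengths matched 97.6% of genes. Labels do not say whether mice shared litters or runs. Some genes are not reported here.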

Additional observations from a re-analysis of the deposited data

How the results depend on the processing

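Of the 17 alternatives, 14 kept the count of markers past the threshold at 0. It was 1, Fabp7, with array quality weights and with the first residual principal component as a covariate, and 0 to 1 when each library was left out (1 without wild-type library 3). The component comes from the residuals of the same fit and leaves the log2 fold changes of the markers as they were. Over all genes the count of 12 became 7 with quantile normalization, 96 with array quality weights, 576 with that component as a covariate and 30 with the transcript length correction. It ran from 0 to 221 when each library was left out, at 221 without wild-type library 3, and at 0 for each of wild-type libraries 2 and 4 and heterozygote-labelled library 8. Fabp7 kept its direction in all 17, with log2 fold changes from -1.35 to -0.81. The log2 fold change of Apoe turned with quantile normalization (0.194), the length correction (0.0642) and removal of both libraries low in Xist (0.0727), and ran from -0.194 to 0.0489 when each library was left out. That of Cadm2 turned with array quality weights (-0.00749) and the length correction (-0.208), and ran from -0.0931 to 0.156 when each library was left out. In the same way Ncam1 ran from -0.242 to 0.0169 and Sox2 from -0.0162 to 0.143. The cause was not tested. The 45 correlations gave 0 past the threshold in the 12 settings run for them, and were not rerun in the others. No paired analysis was possible because the groups share no replicate numbers. Scn7a, with the lowest values, is the marker that depth limits most: 3 reads correspond to 2.37 to 3.89 normalized counts.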

Other observations

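Sox2ot, the noncoding gene in whose bounds Sox2 lies on the same strand, was chosen after its values were seen. It had 354.3, 390.3, 398.7 and 446.9 normalized counts in wild-type libraries 1 to 4 and 219.4, 266.6, 341.1 and 262.5 in heterozygote-labelled libraries 5 to 8. All 4 of the latter lay below every wild-type library, while Sox2 itself overlapped between the groups. The log2 fold change of Sox2ot was -0.56, with an unadjusted limma-trend p of 0.00491 and an adjusted p of 0.242. It did not pass in any of the 17 alternatives, where the adjusted p ran from 0.0625 to 0.615. Whether Sox2ot and Sox2 differ from each other in their change was not tested.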
